A study of Homo sapiens with 6 samples.

Results

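Common fragile sites are long stretches of the genome that tend to show gaps and breaks on metaphase chromosomes when DNA replication is slowed. They lie mostly inside very long genes, many of which replicate late, and deletions within these genes are frequent in cancer cell lines. The genes examined here, FHIT, WWOX, MACROD2, LRP1B, IMMP2L and CSMD1, were chosen by name, and are 6 of 20098 protein-coding genes of the annotation. Every 40-kb bin overlapping a gene and the bins within 1 Mb on either side were taken, which gave 245 bins in the genes and 545 with their flanks, of 75918 bins in the autosomes and X together.

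The maps came from in situ Hi-C, in which DNA ends that lie close in the nucleus are joined and sequenced as read pairs. The lines mapped were 4 established cancer cell lines with no treatment named in the labels: SW480 and SNU-C1 (colon), HCC1954 (breast) and OE33 (esophageal adenocarcinoma). A single map was given for each line but SW480, which had replicates 1 and 2 and an unnumbered map. The unnumbered map pools both replicates, so it is used as the SW480 map and is not independent of them. It listed 351169 bin pairs between chromosomes, against 19499683 to 50193529 in the other lines. The SW480 maps also listed pairs within a bin, and those of the other lines did not. SW480 thus differs from the other lines in processing as well, and its replicates share that processing. Pairs within chromosomes came to 133373069 in SW480 (65990548 in replicate 1 and 67372971 in replicate 2), 115014329 in SNU-C1, 89418425 in OE33 and 93501178 in HCC1954, or a median of 2506 to 3711.5 read pairs per autosomal bin. The maps hold no expression values, so the labelled tissues could not be checked against markers. No test between lines was run, since 3 of the 4 lines have 1 map and the only replicate spread is that of SW480. Intervals in parentheses are exact Poisson 95% intervals, which cover counting error only.

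FHIT (chr3:59733003-61237133, minus strand, 10 exons) encodes a hydrolase of dinucleoside polyphosphates, and WWOX (chr16:78133297-79246564, plus strand, 9 exons) an oxidoreductase with WW domains. Both are classed as tumor suppressors. MACROD2 (chr20:13976015-16033842, plus strand, 18 exons) encodes an enzyme that removes mono-ADP-ribose from proteins. LRP1B (chr2:140988992-142888585, minus strand, 91 exons) encodes an endocytic receptor of the low-density lipoprotein receptor family. IMMP2L (chr7:110302700-111202573, minus strand, 6 exons) encodes a peptidase subunit of the inner mitochondrial membrane, and CSMD1 (minus strand, 70 exons) a membrane protein with CUB and Sushi domains. Positions are in hg19, and exons are those of the canonical transcripts.

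A set of 4 coding exons is shown because they lie in bins of a focal loss of coverage in the lines named, which does not show that the exon itself is deleted. FHIT exon 5 is the first coding exon and holds coding bases 1 to 103 of 441. MACROD2 exon 6 holds coding bases 419 to 540 of 1344. LRP1B exons 3 and 21 are the outermost of the 19 exons in the bins of the loss of SNU-C1. The sequences are those of the reference genome (GRCh37), 5′ to 3′ on the gene's strand, with coding bases in capitals and up to 10 bases of intron in lower case.
FHIT exon 5, chr3:60522593-60522695, in an unlisted bin in SW480 and OE33: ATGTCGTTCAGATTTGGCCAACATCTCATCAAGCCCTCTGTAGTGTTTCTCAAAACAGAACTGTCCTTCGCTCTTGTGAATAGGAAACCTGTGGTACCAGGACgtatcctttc
MACROD2 exon 6, chr20:15210586-15210707, in a bin of lowered coverage in SW480: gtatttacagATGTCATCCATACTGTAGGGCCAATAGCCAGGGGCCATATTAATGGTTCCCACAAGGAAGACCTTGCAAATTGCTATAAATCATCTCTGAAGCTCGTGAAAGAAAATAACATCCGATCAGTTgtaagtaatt
LRP1B exon 3, chr2:142237965-142238102, in an edge bin of lowered coverage in SNU-C1: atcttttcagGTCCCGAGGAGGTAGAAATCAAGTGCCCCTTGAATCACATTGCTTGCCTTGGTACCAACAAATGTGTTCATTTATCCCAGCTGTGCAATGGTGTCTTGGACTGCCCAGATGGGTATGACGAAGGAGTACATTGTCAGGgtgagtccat
LRP1B exon 21, chr2:141680534-141680716, in an edge bin of lowered coverage in SNU-C1: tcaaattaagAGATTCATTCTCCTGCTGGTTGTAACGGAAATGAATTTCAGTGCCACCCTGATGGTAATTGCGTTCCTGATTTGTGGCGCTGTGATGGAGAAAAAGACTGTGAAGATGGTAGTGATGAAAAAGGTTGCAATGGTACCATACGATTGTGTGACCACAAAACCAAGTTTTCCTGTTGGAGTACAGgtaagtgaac

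Of the 6 genes, 5 held a focal loss of coverage in at least 1 line, and each line had losses in 2 or 3 of the genes. Coverage means the read pairs that a bin forms with other bins of its chromosome, divided by the autosome median of that line. Pairs between chromosomes and pairs within a bin are not counted. A focal loss is a run of at least 3 bins at or below 0.7 of the local level, after division by the median of the other 3 lines, and a focal gain the converse. Losses took 39 of 240 gene bins in SNU-C1 (16.2%), 24 of 243 in OE33 (9.88%), 19 of 225 in HCC1954 (8.44%) and 14 of 245 in SW480 (5.71%). The genes were chosen with results of these data known, so these shares are a description. By the same rule, losses took 1.43%, 1.23%, 2.5% and 0.723% of all autosomal bins in these lines. The 19 bins of HCC1954 were 8 at FHIT, in runs not called from its own coverage alone, and 11 at CSMD1. Those at CSMD1 cannot be told apart from the low level of that region, and no other line had a loss in CSMD1. The share of all annotated genes that held a loss was not counted. Gains took 5, 12, 22 and 0 gene bins, against 0.873%, 1.42%, 2.44% and 0.788% of autosomal bins. Gene bins with no listed read pair numbered 21 in OE33, 24 in HCC1954, 8 in SNU-C1 and 6 in SW480. Among autosomal bins that at least 2 other lines covered, the shares with none were 1.34%, 1.52%, 1.08% and 0.258% in that order.

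A bin with no listed pair is not always a bin with no reads. Outside SW480, the maps listed 67498 to 67523 bins against 69838 in SW480, and left out 1609 to 1654 bins that SW480 covered at 0.25 or more of its median. In these 3 maps 99.9% of listed autosomal bins had at least 0.175 to 0.216 of the median. What coverage an unlisted bin had there is not known, since the filter was not given.

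**Figure D1:**
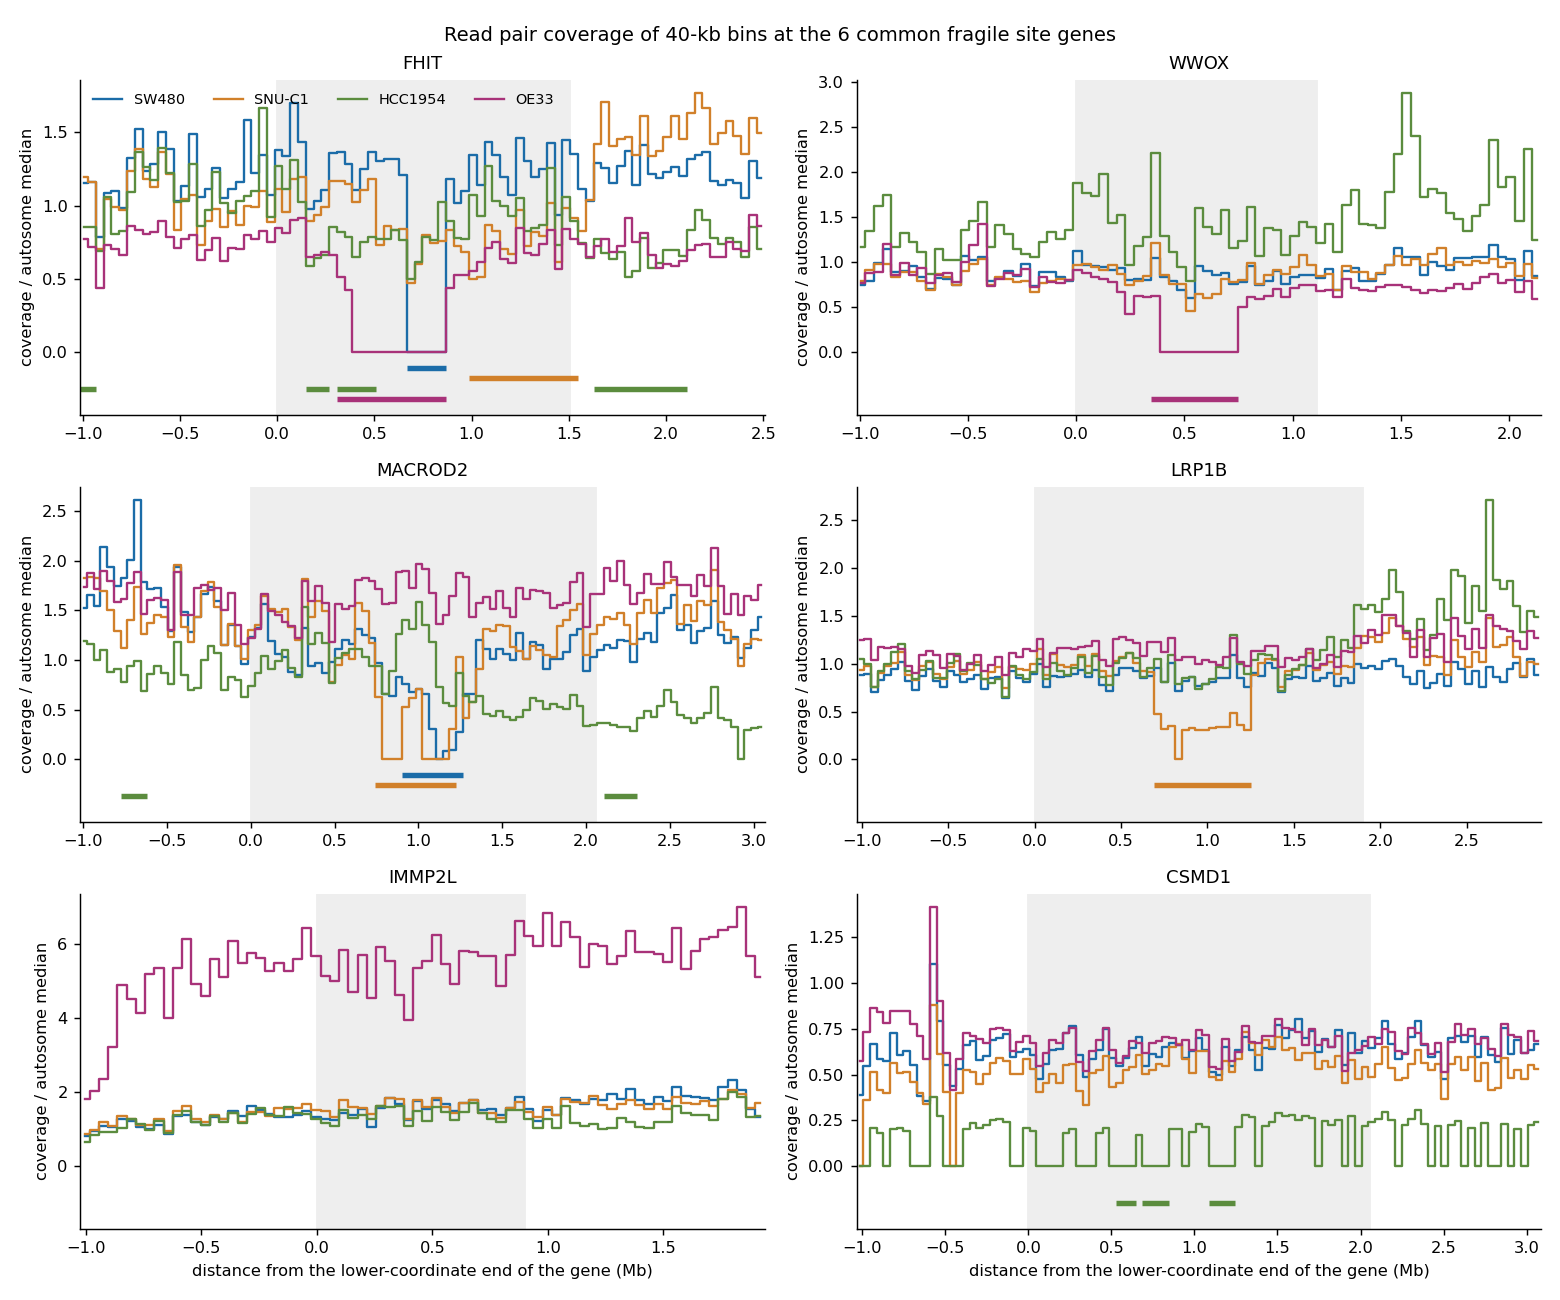
Coverage of each 40-kb bin (read pairs within the chromosome over the autosome median of the line) against distance from the lower-coordinate end of each gene, with the gene shaded and 1 Mb on either side. Bars below 0 mark focal losses in the color of their line, and unlisted bins are drawn at 0. SW480 and OE33 both reach 0 in FHIT, OE33 in WWOX, and SNU-C1 drops in LRP1B, while IMMP2L holds no loss.

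FHIT carried losses in all 4 lines, but only those of SW480 and OE33 held unlisted bins. In SW480 the 5 bins of chr3:60400001-60600000 had no listed pair in the pooled map or in either replicate. The bins before and after stood at 1.21 and 1.18 of the autosome median. In OE33 the loss ran over 14 bins, chr3:60040001-60600000, of which the last 12 were unlisted and the first 2 stood at 0.52 and 0.43. Both losses ended at the same bin edge, and the 5 bins of SW480 were 100% inside the loss of OE33, of which they made up 35.7%. The bin holding exon 5, printed above, was among them, and no other exon was. In those 5 bins SNU-C1 had a median coverage of 0.75.

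SNU-C1 lost FHIT coverage in part. Its median was 1.11 over the 13 bins from chr3:59720001-60240000, 0.80 over the next 27 bins to 61320000, and 1.47 over 22 bins of chr3:61360001-62240000. These stretches, and those given below for WWOX, MACROD2 and LRP1B, were set at visible steps after the data were seen. Some bins between them were left out. The called loss was the 14 bins of chr3:60720001-61280000, at a median of 0.57 of the local level, with exons 1 to 4, which are noncoding. It was called in 9 of 13 alternative settings, and not from its own coverage alone. A loss counted as called in a setting where no fewer of its bins were called than missed. By the number of listed partners, 7 of the 14 bins were called. In HCC1954, 2 weak runs were called. The 3 bins of chr3:59880001-60000000 (exons 6 to 8) stood at 0.66 of the local level, and the 5 bins of chr3:60040001-60240000 at 0.69. Against its own local median, with no other line, HCC1954 had 0.70 and 0.88 there. Neither run was called by that measure or by the number of listed partners. Gains were called at FHIT in SNU-C1 (5 bins from chr3:60040001-60240000) and HCC1954 (6 bins from chr3:60720001-60960000), over bins in which OE33 or SNU-C1 was low. Beyond the gene, HCC1954 had a loss of 12 bins in PTPRG, a receptor phosphatase gene, at 0.61 of the local level, and one of 4 bins at CFAP20DC and FAM3D (chr3:58640001-58800000), at 0.65.

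In WWOX, OE33 alone showed a loss, and it lay wholly inside an intron. The loss covered 10 bins, chr16:78480001-78880000, in the intron between exons 8 and 9 (chr16:78466650-79245504), so no exon was included. In OE33, 9 of the 10 bins were unlisted and the first stood at 0.62. The median in OE33 was 0.73 over the 10 bins before the unlisted stretch and 0.65 over the 10 after it. In the 10 bins of the loss SNU-C1 had a median coverage of 0.76. WWOX had no loss in the other lines, in which the lowest bin reached 0.68 of the local level in SNU-C1, 0.80 in HCC1954 and 0.81 in SW480. HCC1954 held the gene at a raised level, with a median coverage of 1.36 against 0.86 in both SW480 and SNU-C1. Single bins of the gene in HCC1954 ran from 0.79 to 2.21. The flanks were raised too, at 1.42 in HCC1954 against 0.90 in SW480 and 0.89 in SNU-C1.

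MACROD2 was lost in part in both colon lines, over bins that overlapped. In SW480 the loss covered 9 bins, chr20:14880001-15240000, at a median of 0.29 of the local level, with exon 6. Coverage fell there in steps, from a median of 1.20 over 7 bins upstream to 0.68 over 7 bins (chr20:14760001-15040000) and to 0.10 over 5 bins (chr20:15040001-15240000), before it returned to 1.08 over 17 bins. The replicates had medians of 0.095 and 0.10 in the lowest stretch. In SNU-C1 the loss covered 12 bins, chr20:14720001-15200000, within the intron between exons 5 and 6. Between its 2 edge bins it held 3 unlisted bins, 3 bins at a median of 0.62, and 4 more unlisted bins. The 2 losses shared 8 bins, 88.9% of that in SW480 and 66.7% of that in SNU-C1.

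All 12 bins of gain called at MACROD2 in OE33, and 13 of 16 in HCC1954, lay at chr20:14720001-15320000, where SW480 and SNU-C1 were low as the reference. Over the bins lost in SW480, OE33 held 1.37 to 1.96 of its autosome median, and its own coverage alone gave no gain. In HCC1954 the run of 9 bins at chr20:14720001-15080000 stood at 1.74 of its own local median. HCC1954 stood at 0.91 over 33 bins upstream of and at the start of the gene, rose to 1.11 over 15 bins (chr20:14480001-15080000), and fell to 0.43 over the 43 bins from 15320001 onward. In the flanks of MACROD2, HCC1954 had a loss of 4 bins in ISM1 (chr20:13200001-13360000), at 0.64 of the local level, and one of 5 bins in KIF16B, a kinesin gene (chr20:16080001-16280000), at 0.67. SW480 had a gain of 9 bins there, chr20:13080001-13440000, at 1.65 of the local level, over SPTLC3, ISM1 and TASP1. Of the 545 bins of the genes with their flanks, losses took 42 in HCC1954, 40 in SNU-C1, 24 in OE33 and 14 in SW480. The genes alone held 19, 39, 24 and 14 of these. Over the autosomal bins with a usable comparison the shares were 2.5%, 1.43%, 1.23% and 0.723% in the same order.

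LRP1B coverage was lowered in SNU-C1 alone, at an even, partial level. The 14 bins of chr2:141680001-142240000 had a median coverage of 0.33, against 0.995 over the 10 bins before and 0.96 over the 10 after. Of the 14 bins, 1 was unlisted and the other bins stood between 0.31 and 0.49. In SW480, HCC1954 and OE33 the medians over the 14 bins were 0.84, 0.88 and 1.06, with SW480 replicates at 0.84 and 0.83. Exons 3 to 21 lay in these bins, the outermost of them in the edge bins, with 3114 of 13797 coding bases, and 3114 leaves no remainder on division by 3. For FHIT exon 5 (103 bases) and MACROD2 exon 6 (122 bases) the remainder was 1 and 2. At 40-kb resolution the exons in the edge bins cannot be placed inside or outside the loss.

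IMMP2L had no focal loss or gain in any line, yet its coverage stood out in OE33. Median coverage of its 24 bins was 5.62 in OE33, from 3.95 to 6.62, against 1.56 in SW480, 1.59 in SNU-C1 and 1.42 in HCC1954. The flanks of the gene were at the same level in OE33 (5.62), so the change was not confined to the gene.

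CSMD1 (chr8:2792875-4852494) was low throughout in HCC1954, at a median of 0.18 of the autosome median in the gene and 0.20 in the flanks. In SW480, SNU-C1 and OE33 the gene held 0.64, 0.55 and 0.67. Altogether 3 runs of 3 to 4 unlisted bins were called as losses in HCC1954, chr8:3320001-3440000, chr8:3480001-3640000 and chr8:3880001-4040000. In all, 24 of 53 gene bins were unlisted in this line, and the listed bins reached at most 0.29, close to the level below which its map lists few bins. Only 40 of the 53 bins had a usable comparison, because the local level was 0 at the rest. Those are left out of the share of lost bins given for HCC1954. Leaving out unlisted bins removes every bin of the 3 runs, so that setting tells nothing about them. A whole loss of these bins cannot be told apart from the low level of the region.

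Contact between the 2 flanks of a loss was then compared between lines. The measure is the observed contact frequency between the 5 bins before and the 5 bins after a loss over the mean at the same distances on all autosomes (O/E). In the first reading the bins had to be listed in all 4 lines. In a second, chosen after the data were seen, bins were those listed in the line with the loss, and lines that did not list them were left out. The readings used the same bins, and gave the same values, for WWOX, LRP1B, CSMD1 and the OE33 loss of FHIT. Each value was also divided by the O/E of bin pairs at the same distances that lay wholly on 1 side of the loss, within 45 bins of it.

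The flanks of the WWOX loss touched more often in OE33 than in any other line. O/E was 2.91 (2.66 to 3.17, 499 read pairs) in OE33, 0.86 in SW480, 1.07 in SNU-C1 and 0.996 in HCC1954. SW480 replicates gave 0.86 and 0.87, and no replicate spread was had for OE33. The bins lay 600 kb apart on average, and the frequency in OE33 equaled the mean of its map at 240 kb, against 560 to 680 kb in the other lines. Divided by pairs on 1 side, OE33 had 2.22 and the other lines 0.94 to 1.02. Read pairs without iterative correction gave a smaller excess, 1.11 times the highest other line in place of 2.72. Divided by pairs on 1 side, the uncorrected values were 1.63 in OE33 and 0.80 to 0.89 elsewhere.

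At FHIT, SW480 and OE33 showed the same pattern at their own losses. Across the 200-kb loss of SW480, with the bins that SW480 lists, O/E was 2.08 (1.99 to 2.17) in SW480, 2.13 and 2.01 in its replicates, 1.03 in SNU-C1 and 0.88 in HCC1954. The bins lay 400 kb apart on average, and the frequency in SW480 equaled the mean of its map at 200 kb. OE33 did not list these bins. Of the flanking bins compared, 2 lay in a called loss of SNU-C1 and 1 in a called loss of HCC1954. With bins listed in all 4 lines, which then also spanned the longer loss of OE33, SW480 had 1.91 and OE33 3.81. Across the 560-kb loss of OE33, O/E was 4.05 (3.68 to 4.45) in OE33, 2.08 in SW480, 1.43 in SNU-C1 and 1.23 in HCC1954. Here 2 of the flanking bins lay in a called loss of SNU-C1 and 3 in called losses of HCC1954, and the loss of SW480 lay between the flanks, so no line served as one without a loss. The bins lay 760 kb apart, and the frequency in OE33 equaled the mean of its map at 240 kb. Divided by pairs on 1 side, the values were 3.06, 1.77, 1.46 and 1.03 in the same order. Uncorrected read pairs reversed the order, with OE33 at 0.81 times the highest other line; divided by pairs on 1 side they were 2.06 in OE33 and 1.62 in SW480, the highest other line.

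**Figure D2:**
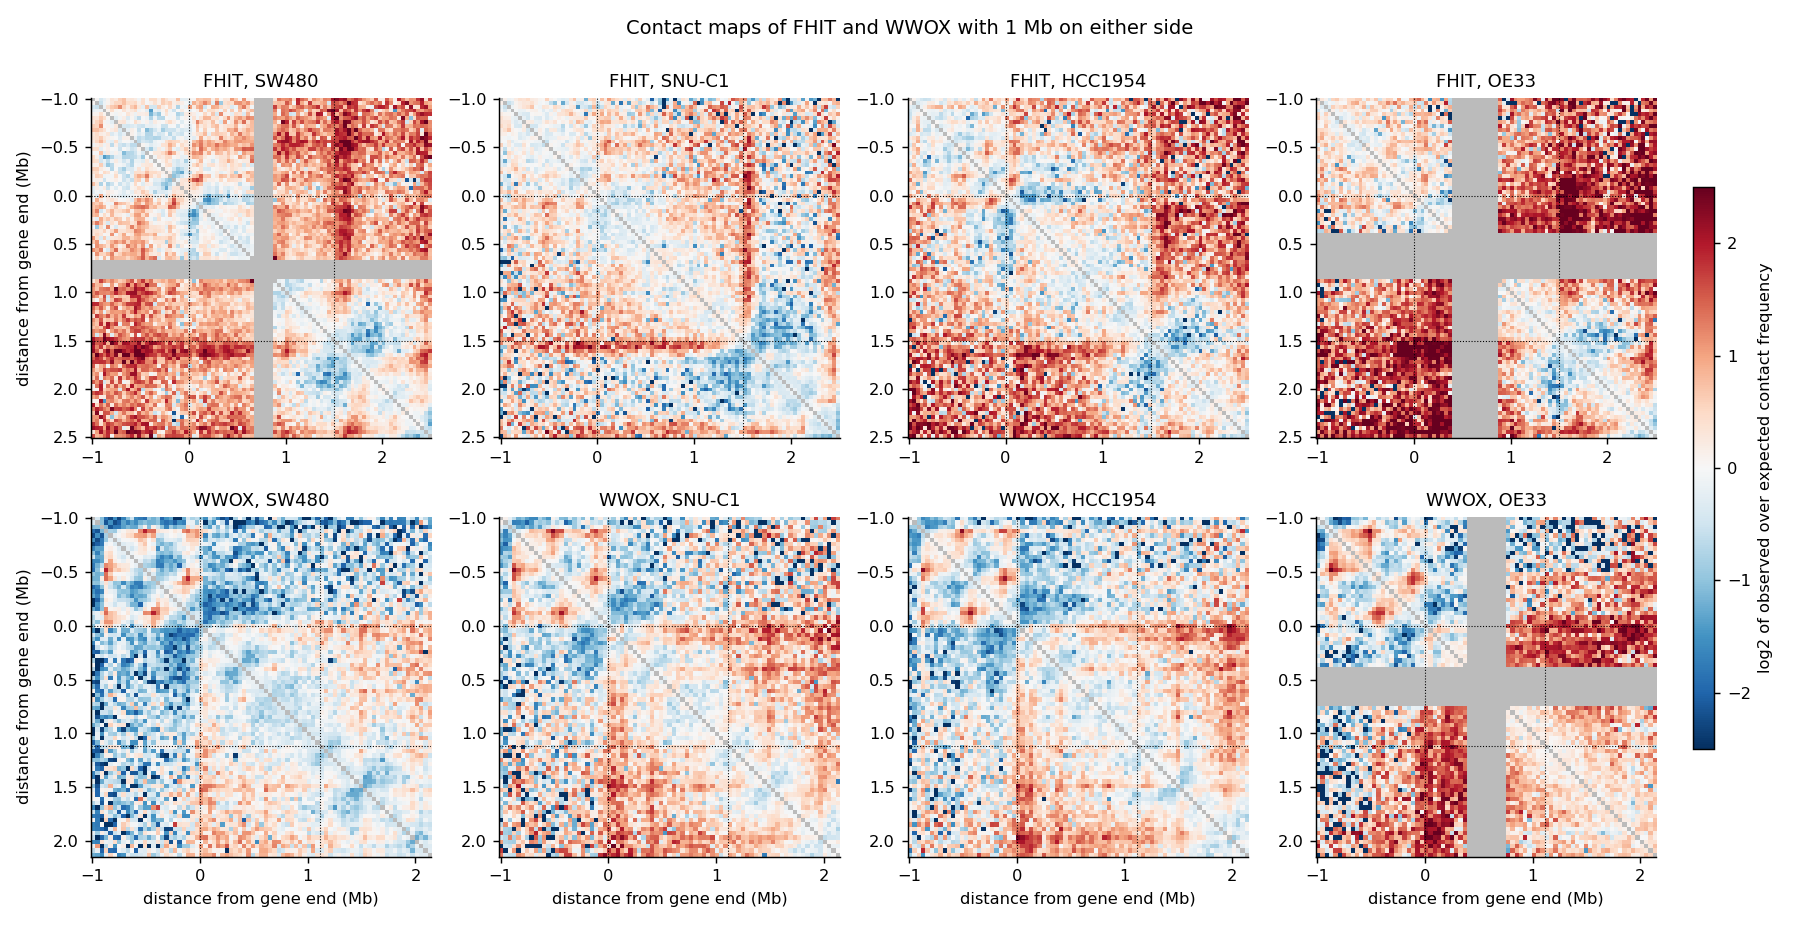
Log2 of observed over expected contact frequency between 40-kb bins at FHIT (top row) and WWOX (bottom row) with 1 Mb on either side, 1 panel per line, with dotted lines at the gene ends and gray where a bin was unlisted. Pairs that span the gray band are raised at FHIT in OE33 (O/E between the flanks of the called loss 4.05) and SW480 (2.08) and at WWOX in OE33 (2.91).

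LRP1B showed raised contact across the partial loss of SNU-C1. O/E was 2.88 (2.69 to 3.08, 859 read pairs) in SNU-C1, 1.19 in SW480, 1.61 in HCC1954 and 0.99 in OE33. The bins lay 760 kb apart, and the frequency in SNU-C1 equaled the mean of its map at 320 kb, against 520 to 760 kb in the other lines. The excess over the highest other line was 1.79-fold, and 1.99-fold without iterative correction.

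At MACROD2 the order of the lines in contact across the losses depended on the measure. Across the loss of SW480, with bins listed in all lines, O/E was 3.03 in SW480, 2.88 in SNU-C1, 2.26 in OE33 and 1.25 in HCC1954. With the bins that SW480 lists, O/E was 2.27 in SW480 (2.28 and 2.24 in the replicates), 1.48 in OE33, which has no loss, and 0.89 in HCC1954. The bins before the loss, chr20:14680001-14880000, then lay in part in the stretch of SW480 already lowered to 0.68. Divided by pairs on 1 side, SW480 had 1.89, OE33 1.54 and HCC1954 0.71, and without correction SW480 had 1.27 and OE33 1.46. Across the loss of SNU-C1, O/E was 2.86 in SNU-C1, 2.94 in SW480, 2.76 in OE33 and 1.61 in HCC1954. Of these flanking bins, 1 lay in the called loss of SW480. The losses of SW480 and SNU-C1 share 8 bins, so neither line served the other as one without a loss. Divided by pairs on 1 side, SNU-C1 had 2.88, OE33 2.75, SW480 2.39 and HCC1954 1.19. Without correction these were 2.02 in SNU-C1, 2.59 in OE33, which has no loss, 1.78 in SW480 and 1.60 in HCC1954.

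At CSMD1 no such excess was left once pairs on 1 side were taken into account. Across the 3 runs at CSMD1, O/E in HCC1954 was 1.75 to 2.10 and at most 1.44 in any other line. Pairs on 1 side were raised as much in HCC1954, at 1.81 to 1.86, so that the ratio was 0.94 to 1.15. The weaker FHIT losses gave small or opposite differences. Across the FHIT loss of SNU-C1 only HCC1954 listed the same bins, and SNU-C1 had 1.60 against 2.38. Of these flanking bins, 3 lay in a called loss of HCC1954. Across the FHIT runs of HCC1954, HCC1954 had 0.64 against 0.78 in SW480 and 0.77 in SNU-C1, and 1.27 against 1.09 in SNU-C1. Of the flanking bins of these runs, 4 and 3 lay in called losses of HCC1954 itself. For the second run, bins listed in all 4 lines put HCC1954 lowest, at 1.23 against 1.43 in SNU-C1, 2.08 in SW480 and 4.05 in OE33. Those bins also spanned the losses of SW480 and OE33.

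**Figure D3:**
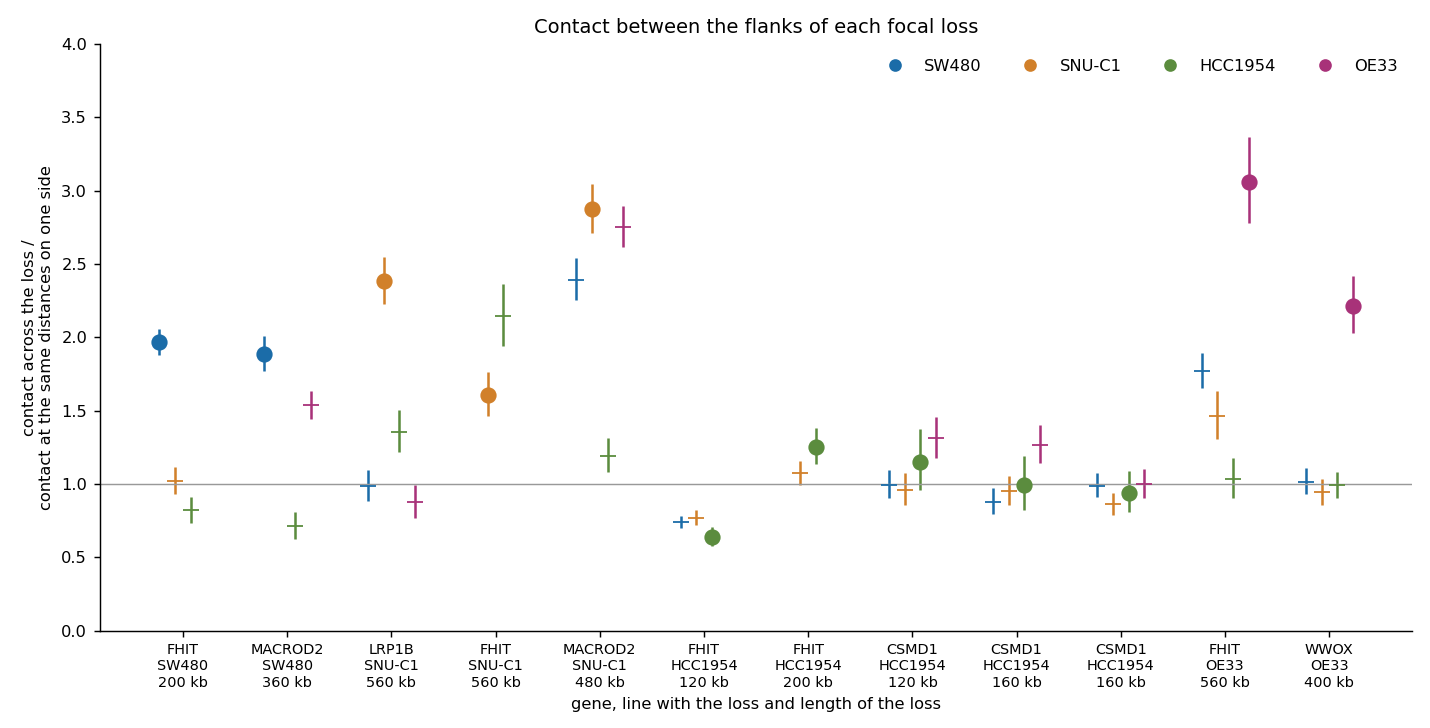
Contact between the flanks of each focal loss over contact at the same distances on 1 side of it, by gene, line with the loss and length of the loss. Round points are the line with the loss, dashes the lines that list the same bins, and vertical lines Poisson 95% intervals of the read pairs across the loss. The line with the loss stands highest for WWOX in OE33 (2.22), FHIT in OE33 (3.06) and SW480 (1.97) and LRP1B in SNU-C1 (2.38). It also stands highest, by less, for MACROD2 in SW480 (1.89) and SNU-C1 (2.88), and lies below OE33 at all 3 runs of CSMD1. For the run of 5 bins of FHIT in HCC1954 (1.25) the only line compared is SNU-C1 (1.07). With bins listed in all 4 lines, HCC1954 was the lowest there (O/E 1.23).

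None of the bin pairs tested in the 6 windows met a stricter rule for contacts particular to a line, an O/E of at least 4 that is also at least 4 times the highest other line, with 0.5 added to both and each O/E and read pair count taken over 3 by 3 bins. Pairs were tested where the bins were at least 200 kb apart and listed in all 4 lines, which left 2154 to 4375 pairs per window and only 750 at CSMD1. The count was 0 in all 24 combinations of gene and line, against 0.00122% of autosomal bin pairs in OE33, 0.00447% in HCC1954, 0.00502% in SNU-C1 and 0.00611% in SW480. The highest ratio was 3.04 for CSMD1 in HCC1954, on 14 read pairs (7.65 to 23.5). For FHIT in OE33 it was 2.79, with an O/E of 7.91 on 84 read pairs 2040 kb apart. That pair began at chr3:60040001, the first bin of the loss of OE33, in which coverage was at most 0.52 of the autosome median. For WWOX in OE33 the highest ratio was 2.496, with an O/E of 3.25 on 186 read pairs 600 kb apart, between bins on opposite sides of the loss. At a ratio of 2 and the same minimum O/E, 85 bin pairs passed. In OE33 these were 61 of 2565 at FHIT, 12 of 2154 at WWOX and 4 of 4375 at LRP1B, against 0.08% of its autosomal bin pairs. In HCC1954 they were 8 of 750 at CSMD1, against 0.0228%, and SW480 and SNU-C1 had 0 in these windows, against 0.0106% and 0.0142%.

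Insulation was scored as the log2 of the mean contact frequency in a 1-Mb square sliding along the map over the chromosome mean, so that low points mark domain boundaries. The SD of single bins between SW480 replicates was 0.022 over the 545 bins, and no spread was had for the other lines. WWOX had a median score of 0.93 in OE33, against 0.25 in SW480, 0.40 in SNU-C1 and 0.33 in HCC1954. FHIT had 0.95 in OE33, against 0.44, 0.32 and 0.34. Both genes held the unlisted bins and raised contacts of OE33 described above, whose part in the scores was not tested. The highest single bin of the 4 lines was in SNU-C1 at MACROD2 (1.41) and at LRP1B (0.76). The median of LRP1B was 0.24 in SNU-C1 against 0.26 to 0.45 in the other lines, and lay between those of SW480 replicates 1 (0.23) and 2 (0.27). IMMP2L was lowest in OE33, at -0.08 against 0.19 to 0.45 elsewhere, where its coverage was high. CSMD1 in HCC1954 had a median of 1.24, from 35 of 53 bins with a score.

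Boundaries were often not shared inside the genes. Of 76 boundaries that the 4 lines placed in the windows, 43 (56.6%) had a boundary within 2 bins in each other line, against 60.2% of all autosomal boundaries. Inside the genes it was 9 of 30 (30.0%). FHIT had 1 boundary in all lines, at chr3:59920001-59960000 in SW480 and HCC1954 and 1 bin lower in SNU-C1 and OE33. SW480 had another of its own at chr3:60680001-60720000, 80 kb past the end of its loss, with a strength of 0.23. CSMD1 had 1 in all lines, between 4760001 and 4880000. LRP1B and MACROD2 had none in all 4 lines inside the gene. Each line had a boundary near the start of MACROD2, with strengths of 0.92 to 1.27. It lay at 13880001 in OE33, 13960001 in SW480, 14040001 in SNU-C1 and 14080001 in HCC1954, too far apart to count as shared by all. Inside MACROD2, HCC1954 had one of its own at 15280001 (strength 0.79), OE33 at 15480001 (0.63) and SW480 at 15720001 (0.47). The entry of WWOX, chr16:78120001-78160000, was a boundary in OE33, with one within 2 bins in each other line, there just outside the gene. SNU-C1 had 2 more of its own in WWOX. IMMP2L had 1 boundary, in OE33 alone, with a strength of 0.12.

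**Figure D4:**
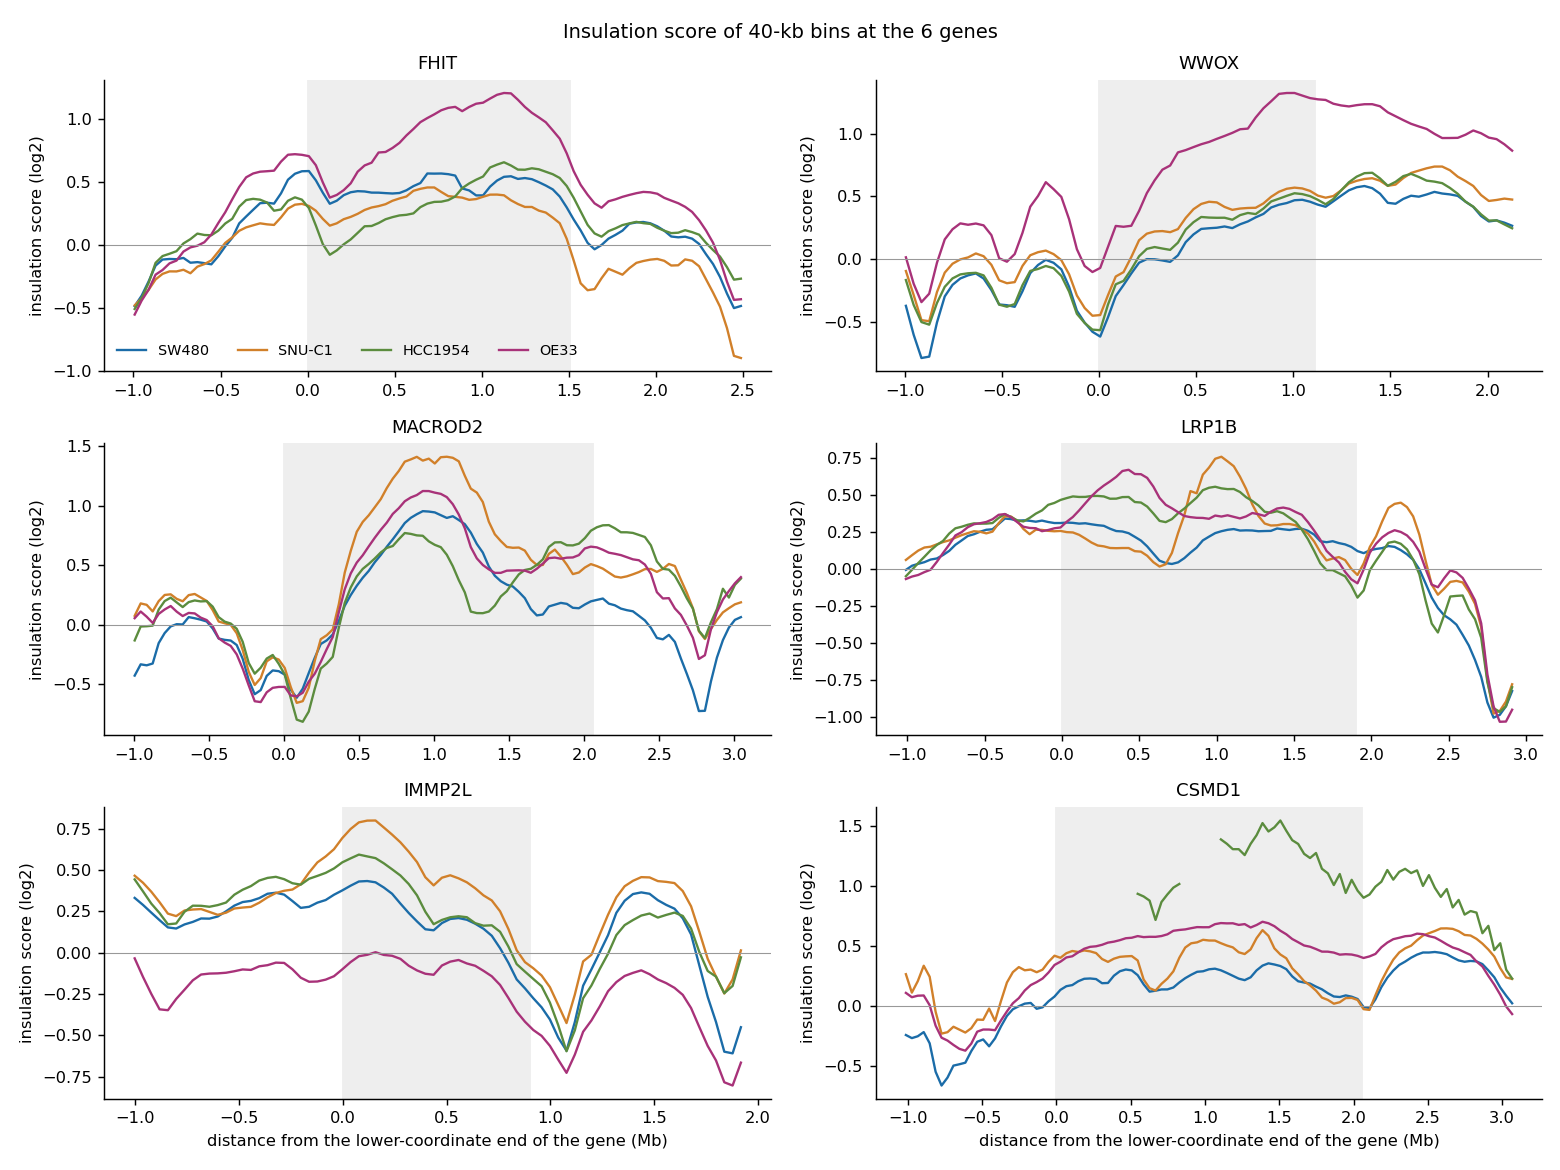
Insulation score (log2) of each 40-kb bin against distance from the lower-coordinate end of each gene, by line, with the gene shaded. OE33 runs above the other lines in FHIT and WWOX (gene medians 0.95 and 0.93) and below them in IMMP2L (-0.08), and bins of HCC1954 without a score leave gaps in CSMD1.

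The genes had mean compartment values below 0, the side of the inactive compartment, in every line, with the exception of FHIT in SW480. The compartment value is the eigenvector of the contact correlation matrix in 200-kb blocks, in SD units of the chromosome, turned so that gene-rich blocks are positive. WWOX, MACROD2, LRP1B and CSMD1 had no block above 0 in any line, and IMMP2L had 1 of 6, in OE33 (0.014). In HCC1954 only 7 of the 12 blocks of CSMD1 had a value. With the chromosome arm taken alone, MACROD2 had 1 block above 0 in each of SNU-C1, HCC1954 and OE33. Over the autosomes, 49.9% of blocks were above 0 in OE33, 55.0% in HCC1954, 46.6% in SNU-C1 and 52.4% in SW480.

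FHIT differed between lines. In SW480 all 8 blocks with a value were above 0, with a mean of 0.41 and a range of 0.18 to 0.87. The replicates gave means of 0.40 and 0.38, also with 8 of 8 blocks above 0. The mean was -0.46 in SNU-C1 (1 of 9 blocks above 0), -0.91 in HCC1954 (0 of 9) and -0.88 in OE33 (0 of 7). The flanks of FHIT had means on the same side of 0 as the gene except in SNU-C1, at 0.49 in SW480, 0.055 in SNU-C1, -0.73 in OE33 and -0.82 in HCC1954. With the chromosome arm taken alone, the mean in SW480 was -0.01, with 3 of 8 blocks above 0, and -0.77, -1.04 and -1.05 in the other lines, so SW480 stood highest by either measure and its sign changed. WWOX was also least negative in SW480, at -0.58 against -0.81 in HCC1954, -1.21 in OE33 and -1.20 in SNU-C1. These differences of SW480 cannot be told apart from the different processing of its maps. The same holds for the FHIT boundary found in SW480 alone.

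**Figure D5:**
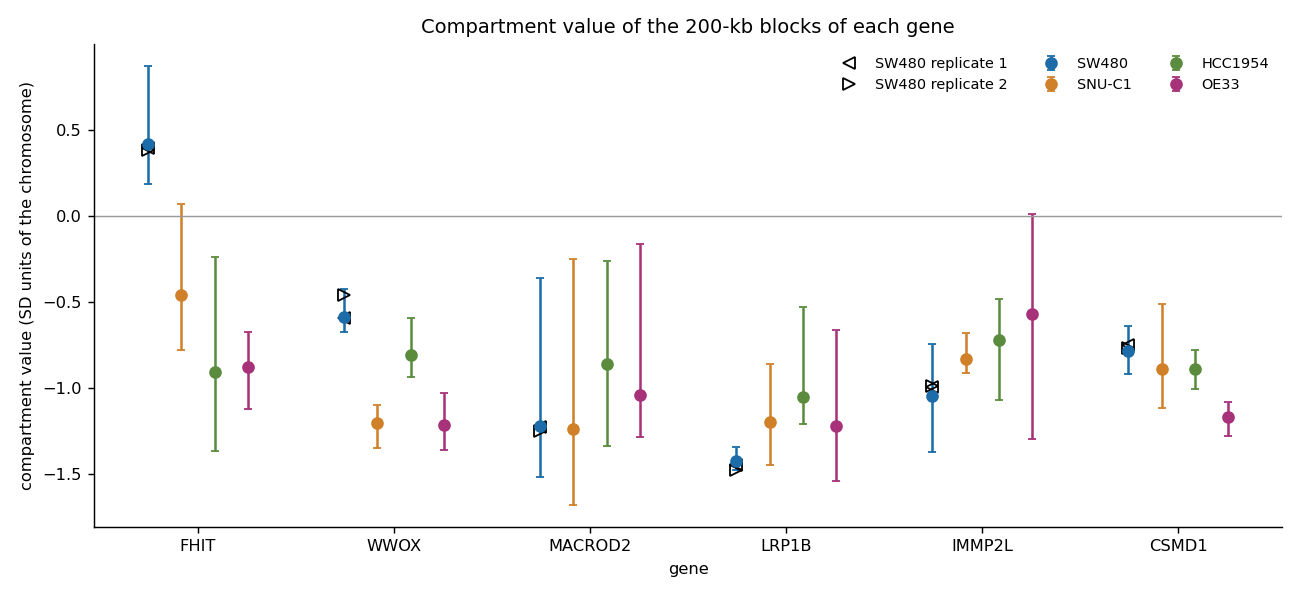
Compartment value of the 200-kb blocks of each gene by line, with points at the mean and bars from the lowest to the highest block; open triangles are the means of SW480 replicates 1 and 2. FHIT in SW480 (mean 0.41) is the only mean above 0, and the replicates lie at 0.40 and 0.38.

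Base composition was read from the reference sequence. The median GC content was 37.9% over the 245 gene bins and 39.8% over 67124 autosomal bins. WWOX was richest at 42.8% and LRP1B poorest at 34.8%, with 93.4% of autosomal bins above it. Runs of 12 or more AT dinucleotides, a kind of repeat that can fold into hairpins, occurred at 6.63 per Mb in the genes and 5.24 per Mb over the autosomes. In WWOX the 10 lost bins held 7 such runs (17.5 per Mb) and the other 19 bins 3 (3.95 per Mb). In FHIT the 30 bins in a loss of any line held 11 and the other 8 bins 0. The order was the other way in LRP1B, where the 14 lost bins held 2 (3.57 per Mb) and the other 35 held 13 (9.29 per Mb), in MACROD2, at 3.85 and 5.77 per Mb, and in CSMD1, at 6.82 and 7.74 per Mb. Over all 6 genes, bins in a loss held 8.01 per Mb and the others 5.99. These are counts of letters in the reference, not in the cell lines.

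A list of 20 other genes known from common fragile sites, also chosen with earlier results of these data known, was counted by the same rule. None had a loss in SW480, 1 in SNU-C1, and 4 each in HCC1954 and OE33, or 0, 1.44%, 6.49% and 7.07% of their bins, to be read against the autosomal shares above. These counts cover only bins with a usable comparison, and GPC6, a glypican gene, had 3 of 31 in OE33 and a median coverage of 0 relative to the other lines. NBEA, which encodes a protein of membrane trafficking, had 18 of 20 bins in a loss in OE33, at a median of 0.55 relative to the other lines.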

How the data were processed

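The processed files were 6 Hi-C maps of 4 cell lines in 40-kb bins of hg19. Per the study's methods, in situ Hi-C with MboI was followed by alignment with BWA-MEM, duplicate removal with Picard and iterative correction. Tool versions, the filter on low-coverage bins and the reason why the SW480 maps differ in form were not given in the sources used here. Contact frequencies after correction, a signal, are what the authors deposited for each bin pair. The other deposited file, the bin list, is of the kind other and gives positions only.

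A correction factor per bin was recovered so that each value became a whole number of read pairs, which held for 99.976% to 100% of values up to 20.5 within 0.02. These read pairs gave the coverage. Expected values were means by distance over all autosomes. Focal losses used a local baseline of 2.48 Mb on either side and bins with at least 0.25 of the median in at least 2 of the other 3 lines. In all, 20 gene bins of HCC1954, 5 of SNU-C1 and 2 of OE33 had no usable comparison. At CSMD1 in HCC1954, where 40 of 53 bins had one, the rest failed because the local level of HCC1954 itself was 0. The other lines covered every bin of that gene at 0.33 or more. Insulation used a 1000-kb window, a 200-kb delta and a strength of at least 0.1, the values that the study's methods give for boundary calls in other maps. Compartments used 200-kb blocks. The focal and boundary calls were also run on simulated data with planted changes, the outcome of which is not reported here. Work was done in Python 3.11.15 with numpy 2.4.6, pandas 2.3.3, scipy 1.17.1 and numba 0.67.0, with GENCODE v44 lifted to GRCh37 for genes; all 23 chromosome lengths matched the bin list. The genes named were the 6 members, genes in a focal loss, and 2 genes from the list of 20 others, of which GPC6 was chosen after its values were seen; some genes of that list are not reported here. The members and lists were chosen with earlier results of these data known. Replicates 1 and 2 of SW480 give the only replicate spread; the study calls its Hi-C replicates biological, and the labels name no separate cultures.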

Additional observations from a re-analysis of the deposited data

How the results depend on the processing

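Of 267 values recomputed under an alternative, 199 were classed as the same, 50 as moved and 18 as changed in direction. For counts and compartment means, the same meant within a set tolerance of the main value, not within an error. For contact ratios it meant on the same side of 1 and within counting error. Moved values lay further off without a change of direction. Lost gene bins in SW480 (14) became 23 at a threshold of 0.8 and 8 with unlisted bins left out. In SNU-C1 (39) they became 24 at a threshold of 0.5. In HCC1954 (19) they became 11 by listed partners, at a threshold of 0.5 and with the mean of the other lines as reference, 5 with at least 5 bins, 29 with a 5-Mb baseline, 83 with no local baseline and 8 with unlisted bins left out. In OE33 (24) they became 0 with unlisted bins left out. The losses of LRP1B in SNU-C1 and MACROD2 in SW480 were still called in all 13 alternatives, and those of FHIT in SW480 and OE33, WWOX in OE33 and MACROD2 in SNU-C1 in 12 of 13, failing with unlisted bins left out, which removes the bins themselves. A loss counted as called where no fewer of its bins were called than missed. For MACROD2 in SW480, 5 of 9 bins were called by listed partners and at a threshold of 0.5.

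Gained gene bins in SW480 (0) became 7 at a threshold of 0.8, 2 with at least 2 bins, 26 with no local baseline and 13 with the mean as reference. In SNU-C1 (5) they became 0 by listed partners, by pairs at least 200 kb apart, at a threshold of 0.5 and by its own coverage, 14 at 0.8, 8 with a 5-Mb baseline and 3 with the mean as reference. In HCC1954 (22) they became 11 by listed partners, 7 at 0.5, 38 at 0.8, 35 with no local baseline and 6 by its own coverage. In OE33 (12) they became 0 by listed partners, at 0.5 and by its own coverage, 55 with no local baseline and 7 with the mean as reference.

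Losses whose contact exceeded every other line fell from 7 to 3 without iterative correction. The ratio to the highest other line then changed direction for FHIT in OE33 (0.81) and in SW480 (1.47), MACROD2 in SW480 (0.71) and the 3 runs of CSMD1 (0.31, 0.29 and 0.43). With 3 by 3 bins it changed for MACROD2 in SW480 (0.89) and SNU-C1 (1.20), and with the expected value of the same chromosome for MACROD2 in SW480 (0.77). With corner bins of the line itself it changed for FHIT in SW480 (2.03) and for one run in HCC1954 (1.16). Over pairs on 1 side, with those same corner bins, it changed for MACROD2 in SNU-C1 (1.04) and CSMD1 (0.88, 0.78 and 0.94). For FHIT in SW480 (1.93) and HCC1954 (1.17) the change had already come with the corner bins of the line itself. Line-specific contacts rose from 0 to 85 at a ratio of 2. The compartment mean of FHIT on the arm alone changed sign in SW480 (-0.011) and was -0.77 in SNU-C1. The causes were not tested. Leaving out either replicate of SW480 changed none of these calls. Measures over unlisted bins, own coverage, own corner bins and pairs on 1 side were added after seeing the data, and the stretches of stepped coverage were set then too. No paired analysis was possible because the lines share only the replicate number 1, which SNU-C1, HCC1954 and OE33 have once each. The highest single ratio, 3.04 for CSMD1 in HCC1954, rests on 14 read pairs, in a gene with a median coverage of 0.18 in that line.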
